A study of Mus musculus with 8 samples.

Results

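Ion, water and acid-base transport was followed through 10 genes in 8 mouse intestinal libraries. The genes were chosen by symbol, and each was found as 1 row in all 8 count matrices, which list 32285 genes in common. They are the water channels Aqp8 and Aqp4, the carbonic anhydrases Car1, Car2 and Car4, the chloride and bicarbonate exchanger Slc26a3, the proton and potassium pump subunit Atp12a, the Na,K-ATPase regulator Fxyd4, the chloride channel Cftr and the sodium-potassium-chloride cotransporter Slc12a2. All mice were on the C57BL/6 background. Small intestinal organoids at passage 1, grown alone (control) or in a coculture whose partner the labels do not name, gave 1 single-cell library each, from 16 pooled wells and 100000 sorted epithelial cells. Sorted small and sorted large intestinal tissue gave 1 single-cell library each, from 50000 live cells, 50000 LGR5+ cells and 20000 to 25000 CD31+ PDPN+ LYVE1+ lymphatic endothelial cells, with Lgr5-eGFP-ires-CreERT2 mice among the donors. Small and large intestine also gave 2 Visium libraries each, from 10 µm cryosections that were technical duplicates. A Visium spot covers a small area of a section and can hold several cells.

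The intestinal epithelium renews itself from crypts, where stem and dividing cells lie, and moves its maturing cells out to the villi of the small intestine or to the surface of the colon. Fluid secretion is classically placed in the crypt, where Slc12a2 loads chloride at the basolateral side and Cftr releases it into the lumen. Absorption is classically placed in mature cells, where Slc26a3 takes up chloride in exchange for bicarbonate that carbonic anhydrases help to supply, and water follows through the membrane and its channels.

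A level is given as CPM, the unique molecular identifiers (UMIs) of a gene per 1000000 UMIs of the library, class or group of spots. Brackets after a level or a log2 ratio hold a 95% interval (exact Poisson, or the exact interval of a ratio of 2 Poisson counts), which covers counting error only. Each group had 1 library or technical duplicate sections, so groups could not be tested against each other and no p-value is given. A gene is called past 2-fold when its ratio of CPM exceeds 2 and its count in the higher group reaches 100 UMIs. Ratios took any count below 3 as 3. The kept cells and spots held 24355871 to 123864787 UMIs per library, with a median of 9039 to 19822 UMIs per spot and 11810 to 86295 per cell. The sections matched their labels: the 6 Paneth cell markers together stood at 42092 and 24475 CPM in small intestine and at 32.8 and 29.1 CPM in large intestine. Of 8842 barcodes of small intestinal tissue, 5497 were over the limit of 20% mitochondrial UMIs and were left out. Whether a lower level in a section reflects fewer cells of a type or less RNA per cell cannot be told apart in these sums.

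The stretch of 250 bases before a RefSeq transcription start is shown for Aqp8, Car4 and Slc26a3, which varied together across colon spots. The sequences are those of RefSeq (GRCm38.p6, the assembly also called mm10), read 5′ to 3′ on the strand of the gene. For Slc26a3 that start lies inside the span given for the gene, downstream of its first base. Capitals mark matches on either strand to 5 motifs, none of which overlapped here. The TATA box was searched as TATAAA. The core of sites for HNF1 factors, which act in intestinal epithelium, was searched as GTTAAT. For HNF4 factors, regulators of enterocyte genes, the core was CAAAGT. For GATA factors, which mark parts of the gut, the letters were AGATAA. For CDX factors, which specify intestine, the letters were TTTATG.
Aqp8 chr7:123462044-123462293: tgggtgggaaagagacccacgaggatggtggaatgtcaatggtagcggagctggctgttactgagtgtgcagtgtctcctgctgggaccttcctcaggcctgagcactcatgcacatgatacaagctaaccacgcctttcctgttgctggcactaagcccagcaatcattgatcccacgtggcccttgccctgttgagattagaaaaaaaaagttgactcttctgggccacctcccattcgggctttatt
Car4 chr11:84957504-84957753: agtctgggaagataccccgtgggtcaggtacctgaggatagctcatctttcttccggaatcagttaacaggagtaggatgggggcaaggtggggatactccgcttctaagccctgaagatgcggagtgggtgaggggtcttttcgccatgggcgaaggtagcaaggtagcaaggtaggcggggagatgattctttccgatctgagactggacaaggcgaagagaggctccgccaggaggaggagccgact
Slc26a3 chr12:31437969-31438218: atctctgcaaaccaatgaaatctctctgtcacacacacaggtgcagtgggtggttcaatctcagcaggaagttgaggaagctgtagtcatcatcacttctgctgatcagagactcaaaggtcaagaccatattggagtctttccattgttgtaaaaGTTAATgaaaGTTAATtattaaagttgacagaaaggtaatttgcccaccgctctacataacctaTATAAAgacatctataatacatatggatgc
Of the 5 motifs, the windows of Aqp8 and Car4 held none. The window of Slc26a3 held GTTAAT at 2 places, beginning 94 and 84 bases before the start, and TATAAA, beginning 30 bases before it. Over all 32851 promoter windows of this length, 6.43% held GTTAAT, 12.4% TATAAA, 12.6% CAAAGT, 9.99% AGATAA and 10.8% TTTATG. These matches describe letters only, and a window without a match says nothing about the factor.

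Small and large intestine were first compared in the sections. Of the 10 genes, 7 were past 2-fold higher in large intestine even when the lower colon section was set against the higher small intestinal one, and 0 were higher in small intestine. Among all 13516 genes measured, 10.3% were past 2-fold higher in large intestine and 10.6% lower. The median log2 ratio was 5.55 over the members and 0.04 over all genes. The members were chosen with earlier results of these data known, so these values describe the list and do not test it.

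**Figure D1:**
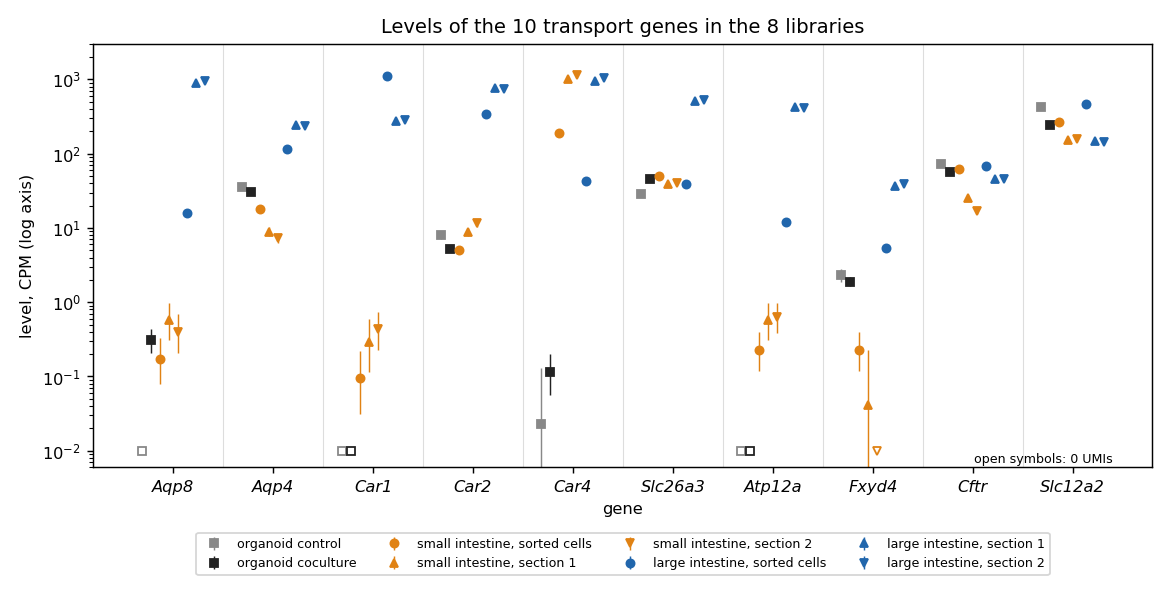
Level of each gene in CPM (log axis) in the 8 libraries, with 95% Poisson intervals and open symbols where no UMI was found. Blue symbols (large intestine) lie above orange ones (small intestine) for Aqp8, Aqp4, Car1, Car2, Atp12a and Fxyd4 in cells and sections, while Car4 and Slc12a2 lie close together in the sections.

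The widest gaps were those of 4 genes that were nearly absent from small intestine. Aqp8 (chr7:123462294-123468003), a water channel, stood at 0.575 and 0.399 CPM in the small intestinal sections and at 891 and 952 CPM in the colonic ones, a log2 ratio of 10.89 [10.36, 11.53]. Car1 (chr3:14766214-14808365), a cytosolic carbonic anhydrase that red cells also carry, stood at 0.287 and 0.432 CPM against 279 and 282 CPM, a log2 ratio of 9.61 [8.95, 10.29]. The 5 erythroid markers together stood at 81.4 and 114.8 CPM against 150.5 and 171 CPM. Atp12a (chr14:56364669-56388551), the catalytic subunit of the non-gastric proton and potassium pump, stood at 0.575 and 0.631 CPM against 428 and 416 CPM, a log2 ratio of 9.45 [8.95, 9.98]. Fxyd4 (chr6:117933558-117937714), a small membrane protein that tunes the Na,K-ATPase, had 1 and 0 UMIs in the small intestinal sections and 36.2 and 38.7 CPM in the colonic ones. The sections are technical duplicates and hold no variation between animals.

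A second group was present in small intestine at a low level. Car2 (chr3:14886269-14900770), the fast cytosolic carbonic anhydrase, stood at 8.87 and 11.6 CPM in small intestine and at 759 and 744 CPM in large intestine, a log2 ratio of 6.20 [6.06, 6.30]. Aqp4, a water channel usually placed in the basolateral membrane (chromosome 18), stood at 8.91 and 7.21 CPM against 247 and 236 CPM, a log2 ratio of 4.90 [4.78, 5.06]. Slc26a3 (chr12:31433142-31473922) stood at 38.5 and 40.4 CPM against 516 and 522 CPM, a log2 ratio of 3.72 [3.65, 3.78].

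The remaining 3 genes were not past 2-fold by the section rule. Car4 (chr11:84957754-84966054), a carbonic anhydrase anchored to the outer face of the membrane, stood at 1012 and 1157 CPM in small and at 963 and 1050 CPM in large intestine, and the sections of the tissues overlapped. Slc12a2 (chromosome 18) stood at 151.5 and 157 CPM against 148 and 144 CPM, a log2 ratio of -0.08 [-0.12, -0.04] in the pooled counts. Cftr (chr6:18170687-18322770) stood at 25.5 and 16.9 CPM against 46.0 and 45.1 CPM. Its log2 ratio was 1.10, but 0.82 between the nearest sections, below the 2-fold limit, and it passed that limit when small intestinal section 1 was left out (1.43).

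In sorted cells 6 of the 10 genes were past 2-fold higher in large intestine and 1 lower, where 11.5% and 8.83% of 13559 genes were. Car1 stood at 1107 CPM against 0.0958 CPM, and all 5 of its small intestinal UMIs lay in 1 B-like cell. Aqp8 (15.8 against 0.172 CPM), Car2 (338 against 5.12 CPM), Atp12a (12.2 against 0.230 CPM), Fxyd4 (5.35 against 0.230 CPM) and Aqp4 (114 against 18.1 CPM) were higher in large intestine as they were in the sections. Slc12a2 stood at 465 against 268 CPM (log2 ratio 0.80) and Cftr at 68.5 against 63.0 CPM (0.12). Car4 went the other way, with 43.1 CPM in large and 190 CPM in small intestine, a log2 ratio of -2.14 [-2.19, -2.09]. Slc26a3 stood at 38.8 against 50.7 CPM (log2 ratio -0.39), where the sections gave 3.72. The sort sets the share of each cell class in these libraries, and the median log2 ratio over all genes was 0.22.

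Within surface classes (enterocyte-like and colonocyte-like cells, named from marker genes) Slc26a3 was higher in large intestine, at 389 against 157 CPM, a log2 ratio of 1.31 [1.22, 1.39]. The mix of the classes differed, with 169 enterocyte-like and 237 colonocyte-like cells in large and 294 and 69 in small intestine. Within enterocyte-like cells Slc26a3 stood at 613 against 155 CPM (1.98), and within colonocyte-like cells at 256 against 164 CPM (0.64, short of 2-fold). The class named colonocyte-like is not alike in the tissues, since the small intestinal one, a cluster led by Pla2g4c, Gsdmc2 and Sprr2a3, had 0 UMIs of Aqp8, Aqp4, Car1 and Atp12a. Values set side by side within it are therefore those of unlike clusters. Car4 stood at 412 against 622 CPM over both classes (-0.60), with a sign that differed between them. It stood at 518 against 447 CPM in enterocyte-like cells (0.21 [0.13, 0.29]) and at 349 against 1184 CPM in colonocyte-like cells (-1.76 [-1.84, -1.68]). Slc12a2 stood at 80.5 against 18.2 CPM over both (2.15), with 0.88 in enterocyte-like and 3.30 in colonocyte-like cells. In stem-like cells it stood at 687 against 1489 CPM, a log2 ratio of -1.11 [-1.16, -1.07].

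Car2 and Atp12a were higher in large intestine also in classes that are not absorptive. In goblet-like cells, which secrete mucus, Car2 stood at 423 CPM in large intestine (289 cells) and at 0.386 CPM in small intestine (224 cells, 2 UMIs). Atp12a stood at 66.3 CPM in large intestinal goblet-like cells and had 0 UMIs in the small intestinal ones, with a lower limit of the log2 ratio of 6.54. Of its 490 UMIs there, 470 fell in the goblet-like cluster led by Spink1, Hamp2 and Zg16. Car2 also stood at 352 CPM in stem-like and 259 CPM in cycling-like cells of large intestine, against 0.307 CPM (1 UMI) and 2.17 CPM in small intestine. The opposite direction was seen in cycling-like cells for Car4, which stood at 13.5 against 88.8 CPM (-2.72), and for Slc26a3, at 5.99 against 32.5 CPM (-2.44).

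**Figure D2:**
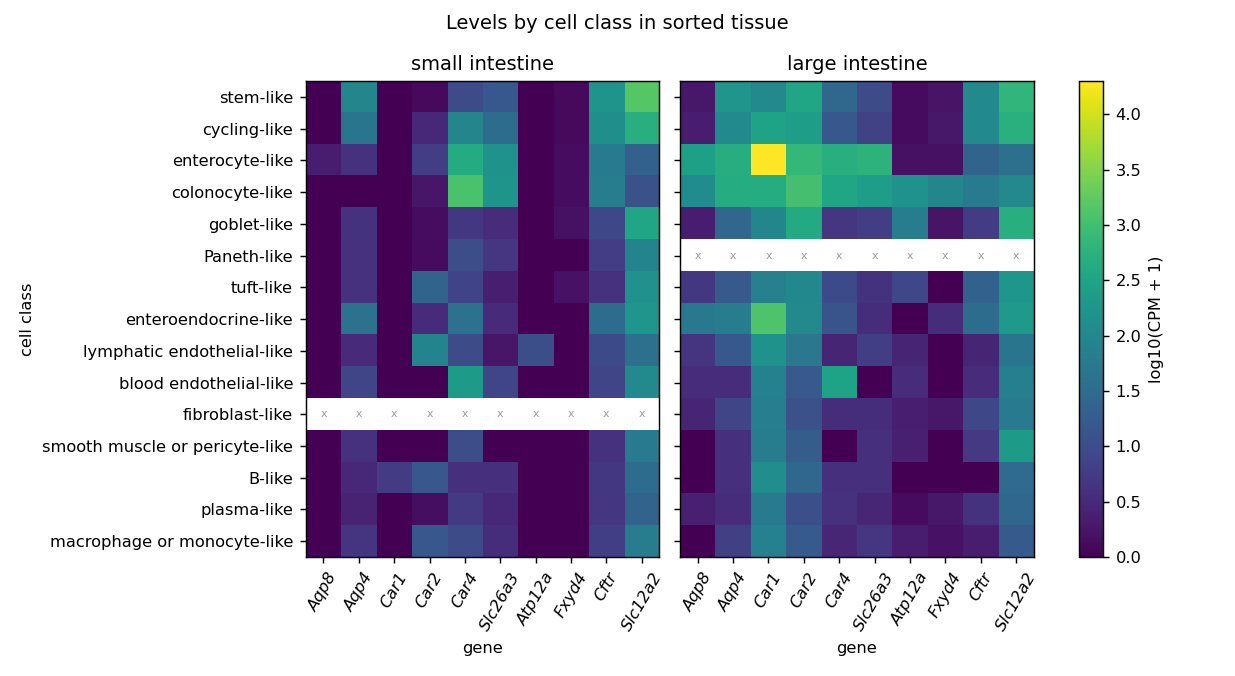
Level of each gene as log10(CPM + 1) in most of the named cell classes of sorted small and large intestine (crosses: class with under 20 cells). Slc12a2 and Cftr are brightest in stem-like and cycling-like cells of both tissues, while Car4, Slc26a3 and, in large intestine, Aqp8 and Car1 are bright in enterocyte-like and colonocyte-like cells.

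The order of the classes was read from these levels. In small intestine Slc12a2 was highest in stem-like cells (1489 CPM), then in cycling-like (513 CPM) and goblet-like cells (350.0 CPM), with no overlap of the intervals. Cftr was highest in stem-like (167 CPM) and next in cycling-like cells (139 CPM), and so was Aqp4 (94.0 and 45.6 CPM), whose level in cycling-like cells overlapped that in enteroendocrine-like cells (38.7 CPM). In large intestine Cftr in stem-like (115 CPM) and cycling-like cells (109 CPM) had overlapping intervals. Car1 there was highest in enterocyte-like cells (19558 CPM), then in enteroendocrine-like (1316 CPM), unnamed (1023 CPM) and colonocyte-like cells (459 CPM). Car4 in small intestine was highest in a colonocyte-like cluster of 69 cells (1184 CPM), then in unnamed cells (514 CPM) and enterocyte-like cells (447 CPM). For Slc26a3 the colonocyte-like and enterocyte-like classes overlapped (164 and 155 CPM).

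Some members were found outside the epithelium. Car4 stood at 312 CPM in blood endothelial-like cells of large intestine (87 cells, 124 UMIs), and its interval overlapped that of colonocyte-like cells (349 CPM). Car2 in small intestine was highest in lymphatic endothelial-like cells, at 85.8 [70.3, 103.8] CPM, and next in T, NK or ILC-like cells, at 67.7 CPM, with overlapping intervals. All 12 small intestinal UMIs of Atp12a lay in lymphatic endothelial-like cells, where the level was 9.72 [5.02, 17.0] CPM.

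Car1 UMIs also appeared in large intestinal cell classes that should lack the gene. After each cell was thinned to 2000 UMIs, 22.4% [14.9, 31.5] of 107 B-like cells had a Car1 UMI, beside 19.2% [18.2, 20.3] of all 5238 cells (exact binomial intervals). Without thinning the shares were 30.9% and 61.0%. The median depths before thinning were 2644 UMIs in B-like cells and 21761 in all cells. Car1 stood at 129.5 CPM in B-like cells and at 55.5 CPM in plasma-like cells. Its 104.5 CPM in stem-like and 92.8 CPM in goblet-like cells lay between these levels. Whether the stem-like and goblet-like values are background was not tested. For the other members the B-like share was 0% to 7.48%.

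Crypt and surface were compared within colon sections by ranking spots on 12 crypt and 8 surface genes, none of them a member. Spots in the upper quartile of the crypt to surface score are called crypt spots and those in the lower quartile surface spots. Of the 10 genes, 6 were past 2-fold higher in surface spots and 2 in crypt spots of both sections, where 9.13% and 25.6% of 9132 genes were. The median log2 ratio of crypt over surface was -3.43 over the members and 0.49 and 0.48 over all genes in the 2 sections.

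The surface genes included the exchanger Slc26a3, the membrane carbonic anhydrase Car4 and the water channel Aqp8. Slc26a3 stood at 63.3 and 60.6 CPM in crypt spots and at 1326 and 1273 CPM in surface spots, log2 ratios of -4.39 in both sections. Car4 stood at 120.5 and 127 CPM against 2500 and 2579 CPM (-4.38 and -4.34), and Aqp8 at 122 and 130.3 CPM against 2258 and 2291 CPM (-4.20 and -4.14). Atp12a stood at 39.6 and 40.0 CPM against 1120 and 1061 CPM (-4.82 and -4.73). Fxyd4 (-3.98 and -3.55) and Car1 (-2.98 and -3.21) had the same direction. Both sections gave these directions for the 6 genes, but they are technical duplicates.

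The secretory genes lay at the other end. Cftr stood at 86.3 and 82.995 CPM in crypt spots and at 11.9 and 11.3 CPM in surface spots, log2 ratios of 2.86 and 2.88. Slc12a2 stood at 295 and 296 CPM against 42.3 and 38.8 CPM, log2 ratios of 2.80 and 2.93. Aqp4 was higher in crypt spots but short of 2-fold (0.97 and 0.70), and Car2 differed little (-0.12 in both). In epithelium-rich spots alone the mean log2 ratio of Aqp4 was 2.44 and that of Car2 was 0.87. Crypt spots also held more muscle marker RNA (2120 and 1990 CPM against 621 and 560 CPM) and less epithelial marker RNA (8487 and 8358 CPM against 16554 and 17009 CPM), and the part of this in the ratios was not tested.

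**Figure D3:**
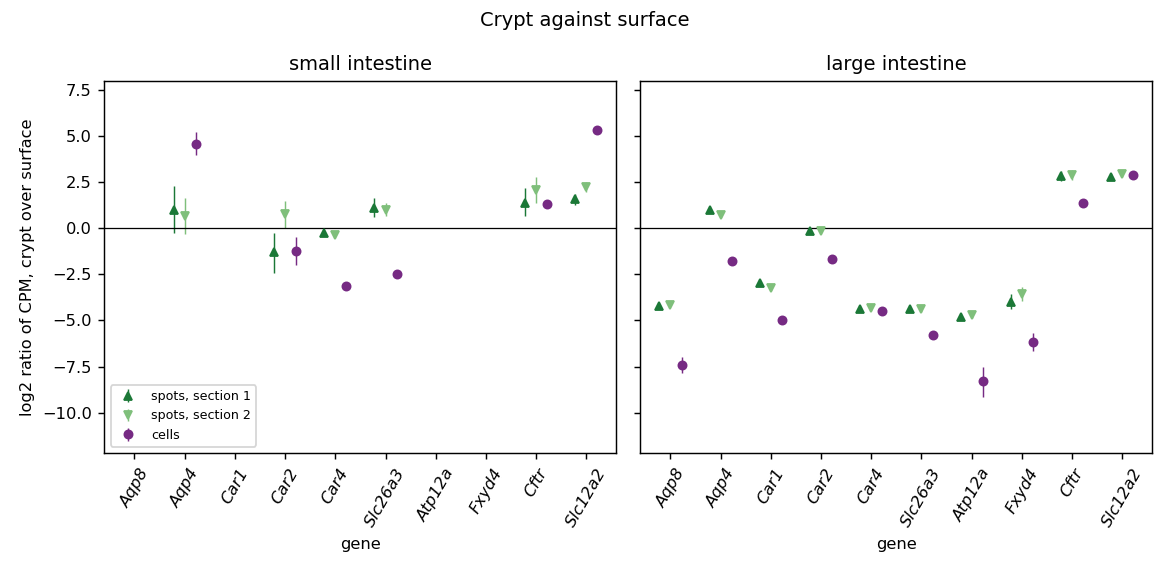
Log2 ratio of crypt over surface for each gene in small (left) and large intestine (right), from spots of each section and from sorted cells, with 95% intervals for genes with at least 10 UMIs in a group. In large intestine 6 genes lie below -2.5 in both sections and Cftr and Slc12a2 lie above 2.5, while Slc26a3 lies above 0 in small intestinal spots and below 0 in small intestinal cells.

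Cells of large intestine gave 8 of 10 genes past 2-fold higher in surface classes and 2 in crypt classes (stem-like and cycling-like cells), where 11.1% and 25.8% of 10229 genes were. Atp12a stood at 0.317 against 97.8 CPM (log2 ratio -8.27), Aqp8 at 1.06 against 181 CPM (-7.41), Fxyd4 at 0.814 against 58.0 CPM (-6.15), Slc26a3 at 6.92 against 389 CPM (-5.81) and Car4 at 18.4 against 412 CPM (-4.49). Slc12a2 stood at 590.3 against 80.5 CPM (2.87) and Cftr at 111.5 against 43.5 CPM (1.36). These 7 genes had the direction they had in the spots. Aqp4, at 135 against 465 CPM (-1.79), had the opposite direction in cells and in spots, and Car2 was lower in crypt classes by more than 2-fold (-1.69) where the spots were nearly even. Car1 stood at 241 against 7582 CPM (-4.98), beside 129.5 CPM in B-like and 55.5 CPM in plasma-like cells. The part of background in the crypt value was not tested.

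The large intestinal stem-like class rested on 3 markers, and the surface classes had a higher median mitochondrial share (10.9% against 6.71%). Under a stricter filter, which asked for 1000 genes per cell and a mitochondrial share of no more than 10%, the surface class was 78 cells of a cluster led by Cyp2f2. Against it 3 members in place of 8 were past 2-fold higher at the surface, where 4.46% of 8031 genes were, and the log2 ratio of Car4 changed sign to 2.53. Ranking epithelial cells on the crypt and surface genes in place of classes, an alternative chosen after the data were seen, gave 8 higher in surface and 2 in crypt cells, where 10.9% and 19.9% of 10297 genes were, from 749 surface and 728 crypt cells. The sizes differed from those between classes, with Slc12a2 at 603 against 275 CPM, a log2 ratio of 1.13 in place of 2.87, and Aqp8 at -6.09 in place of -7.41.

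Small intestine followed part of this order. In its cells, 5 members reached 100 UMIs, of which 3 were past 2-fold higher in crypt classes and 2 in surface classes, where 30.2% and 11.9% of 9156 genes were. Slc12a2 stood at 735 against 18.2 CPM, a log2 ratio of 5.34 [5.13, 5.55], Aqp4 at 56.6 against 2.38 CPM (4.57) and Cftr at 145 against 59.0 CPM (1.30). Car4 stood at 70.5 against 622 CPM (-3.14) and Slc26a3 at 28.3 against 157 CPM (-2.47). The crypt classes were thus higher in the secretory pair and the surface classes in the exchanger and the membrane-bound carbonic anhydrase, in both tissues. In cells Aqp4 lay on opposite sides in the tissues, a difference that was not tested, while in the sections its ratio was above 0 in both (0.98 and 0.68 in small intestine, with intervals that include 0, and 0.97 and 0.70 in large intestine).

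In the small intestinal sections, 669 of 2063 and 999 of 2424 thinned spots carried enough UMIs of the crypt and surface lists to be ranked. Slc12a2 was the only member past 2-fold in both sections, higher in crypt spots at 154 and 184 CPM against 51.3 and 39.1 CPM (log2 ratios 1.58 and 2.24), where 5.83% of 3430 genes were higher and 2.97% lower. Its call was lost without the proliferation genes of the crypt list, with a mean log2 ratio of 1.27, and in epithelium-rich spots, where its mean was 0.88 and Slc26a3 was past 2-fold in its place (1.28). Slc26a3, with 92 and 133 UMIs in crypt spots, stood at 45.8 and 54.0 CPM against 21.0 and 26.6 CPM, log2 ratios of 1.12 [0.62, 1.64] and 1.02 [0.65, 1.39]. This direction was the opposite of that in small intestinal cells and in colon spots. Cftr stood at 24.4 and 22.7 CPM against 9.29 and 5.46 CPM (1.39 and 2.06), and Car4 differed little (-0.24 and -0.34). Without the first section, 2 members were past 2-fold higher in crypt spots, Slc12a2 and Slc26a3. Crypt spots held 5087 and 7506 CPM of muscle marker RNA against 1610 and 1659 CPM in surface spots, and its part in these ratios was not tested.

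The surface genes were spread unevenly over mature cells of large intestine. A colonocyte-like cluster of 237 cells led by Ly6g, Trpv6 and Clca4b and an enterocyte-like cluster of 169 cells led by Alpi, Tmigd1 and Slc10a2 differed past 2-fold in 7 of the 10 members, which the clustering had not used. The first cluster was higher in 4 and lower in 3, where 13.5% and 8.3% of 5710 genes were. Atp12a stood at 156 CPM in the first cluster and at 0.547 CPM (2 UMIs) in the second. Fxyd4 stood at 92.1 against 0.547 CPM (2 UMIs). Car1 went the other way, at 459 against 19558 CPM, a log2 ratio of -5.41 [-5.47, -5.36]. Slc26a3 (256 against 613 CPM) and Aqp8 (121 against 282 CPM) were also lower in the first cluster, and Cftr (55.9 against 22.7 CPM) and Slc12a2 (106 against 37.7 CPM) higher. The same sort and library gave both clusters, and the median mitochondrial share was 9.36% in the first and 13.0% in the second.

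An unnamed cluster of 271 cells led by Gsdmc2, Cwh43 and Ces1g carried genes of both ends. It held Car1 at 6062 CPM and Car2 at 1172 CPM, with Cftr at 155 CPM and Slc12a2 at 385 CPM, while Aqp8 (1.66 CPM), Atp12a (3 UMIs) and Fxyd4 (4 UMIs) had few UMIs. The log2 ratio of the enterocyte-like over the unnamed cluster was 7.41 [6.63, 8.32] for Aqp8 and 4.51 [4.28, 4.74] for Car4.

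Co-occurrence was measured over epithelium-rich spots of the colon sections (1052 and 1112 spots, thinned to 2000 UMIs) as Pearson's r of log-normalised values. Spots of a section share a library and lie beside each other, so r is a description. Among all 45 pairs of members, 6 had r of at least 0.3 in both sections, a limit chosen after the values were seen. They were the 6 pairs among Aqp8, Car4, Slc26a3 and Atp12a. Over all 50999950 pairs of genes that had at least 200 UMIs in section 1 (without mitochondrial, ribosomal and predicted genes), 0.00227% reached this limit. The 4 genes also reached it with many genes that are no members, in all with 56 (Aqp8), 65 (Car4), 50 (Slc26a3) and 37 (Atp12a) of 10099 genes, so the limit does not set their own pairs apart. Aqp8 and Car4 had r of 0.69 and 0.67, Car4 and Slc26a3 0.60 and 0.55, and Aqp8 and Slc26a3 0.58 and 0.52. Atp12a had r of 0.46 and 0.38 with Slc26a3. A UMI of both Aqp8 and Car4 was found in 60.3% [57.2, 63.2] and 61.4% [58.5, 64.3] of spots, where 50.1% and 52.1% would follow from the single shares.

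**Figure D4:**
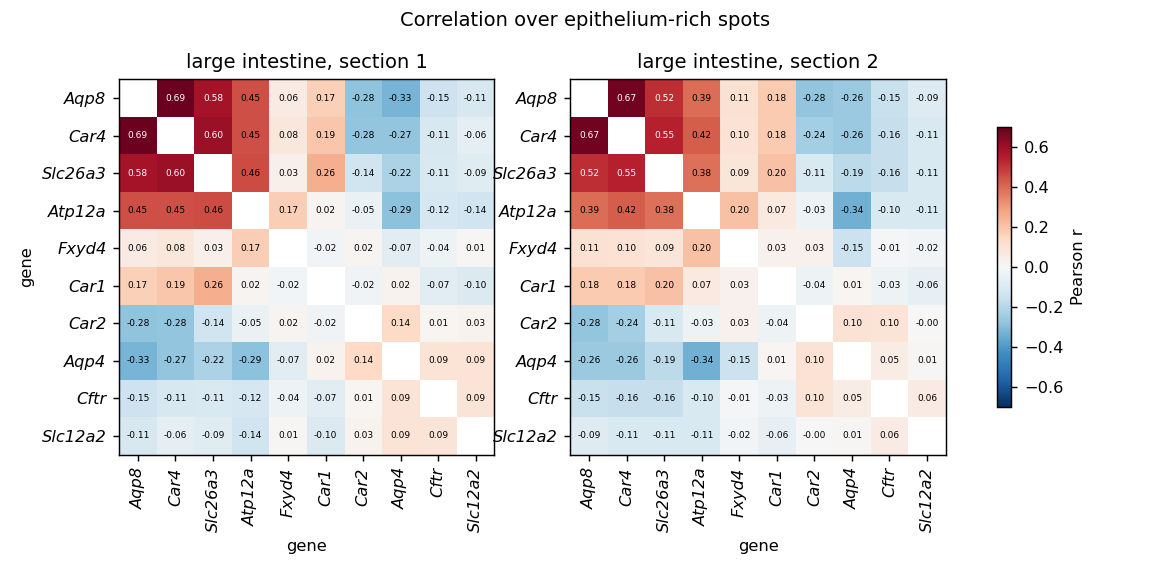
Pearson's r of each pair of genes over epithelium-rich spots of the large intestinal sections (red positive, blue negative). The block of Aqp8, Car4, Slc26a3 and Atp12a at the upper left is red in both sections, from 0.38 to 0.69, and its pairs with Aqp4 are blue.

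Without thinning, where depth differs between spots, 11 pairs reached the limit. Over all kept spots it was 9, with the pairs of Car1 with Aqp8 (mean r 0.31), Car4 (0.31) and Slc26a3 (0.35) added. The remaining surface genes joined the block weakly. Car1 had r of 0.26 and 0.20 with Slc26a3 but 0.02 and 0.07 with Atp12a, and both Car1 and Atp12a were seen in 27.3% and 26.1% of spots where 26.6% and 24.2% would follow from the single shares. Fxyd4, seen in 9.03% and 10.1% of the spots, had r of 0.17 and 0.20 with Atp12a.

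Of the negative pairs, 5 had r of at most -0.2 in both sections, 3 with Aqp4 and 2 with Car2, where 0.00254% of the 50999950 gene pairs did. Aqp4 met this limit with 22 and Car2 with 9 of 10099 genes, members included. Aqp4 had r of -0.33 and -0.26 with Aqp8, -0.27 and -0.26 with Car4 and -0.29 and -0.34 with Atp12a. Car2 had r of -0.28 and -0.28 with Aqp8 and -0.28 and -0.24 with Car4. With Slc26a3 and Atp12a the coefficients of Car2 were weaker (-0.14 and -0.11, and -0.05 and -0.03). Over all kept spots the 5 pairs lay between -0.17 and -0.07, short of the limit of -0.2, which was also chosen after the values were seen, and 4 other pairs met it there. Without thinning, 18 pairs met it. Aqp4 was detected in 33.6% [30.7, 36.5] and 34.6% [31.8, 37.5] of the epithelium-rich spots and Car2 in 74.1% [71.4, 76.8] and 72.3% [69.6, 74.9]. Cftr and Slc12a2 were seen in at most 11.3% of epithelium-rich spots, and their coefficients lay between -0.16 and 0.10.

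Over 362 thinned surface-class cells of large intestine, 5 of the 6 pairs were seen together more often than the single shares give, by intervals that excluded that share. The share of all gene pairs that do so was not counted, so no excess is read from this count. Pairs outside the block did so too, such as Atp12a and Fxyd4 (2.21% [0.96, 4.31], where 0.722% would follow). The cells pool the colonocyte-like and enterocyte-like clusters, which were unlike in several members. For Car4 and Atp12a the interval, 4.97% [2.97, 7.74], included it (3.22%). Aqp8 and Car4 were both seen in 13.0% [9.7, 16.9] of cells, 2.89 times the share that follows from the single ones, and Aqp8 and Atp12a in 6.35%, 3.23 times that share. Aqp8 and Aqp4 were both seen in 1.38% [0.45, 3.19] of cells, 0.230 times that share, and Aqp8 and Slc12a2 in 0.276%, 0.126 times. Car1 and Atp12a were both seen in 4.97% [2.97, 7.74], an interval that included the share from the single ones (6.83%). Cells of 1 library are not replicates, and these shares describe that library.

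The genes most like each member over the spots of section 1 were ranked among 10099 genes. Aqp8 was followed most closely by Car4, then by Saa1 (0.68 in both sections), an acute-phase protein gene, and Lypd8 (0.67 and 0.64), a gene for a surface protein of colonocytes. Car4 came closest to Saa1 (0.76 and 0.71), then to Aqp8 and Lypd8. Slc26a3 came closest to Lypd8 (0.64 and 0.57), then to Saa1 (0.62 and 0.57) and Car4. Atp12a came closest to Lypd8 (0.59 and 0.58), Prdx6 (0.58 and 0.55) and Clca4b (0.57 and 0.53). Lypd8 is also a gene of the surface list. Aqp4 had other neighbours, Mptx1 (0.33 and 0.33), Retnlb (0.31 and 0.29), a goblet cell product, and Gsdmc2 (0.30 and 0.22). Car1 came closest to Clca1 (0.29 and 0.28), Krt20 (0.28 and 0.27) and Fcgbp (0.27 and 0.26), of which Clca1 and Fcgbp are goblet cell products and Krt20 is in the surface list. Values were low for Fxyd4 (Ly6g, 0.18 and 0.15), Car2 (Eef1a1, 0.21 and 0.18) and Slc12a2 (Gpx2, 0.16 and 0.14).

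In the organoids 3 of the 7 genes higher in the colon sections had 0 UMIs or few, and Aqp4, Car2, Slc26a3 and Fxyd4 had at least 100 UMIs in both libraries. Car1 and Atp12a had 0 UMIs in both libraries, with 43279721 UMIs in the control and 96956612 in the coculture. Aqp8 had 0 UMIs in the control and 30 in the coculture, spread over 12 cells of which 1 held 53.3% of them. Car4, which the small intestinal tissue does carry (190 CPM in sorted cells), had 1 UMI in the control and 11 in the coculture (0.113 CPM).

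Between the cultures, 0 of the 6 members with at least 100 UMIs were past 2-fold in either direction, where 1.22% of 10781 genes were higher in coculture and 2.53% lower. The median log2 ratio of coculture over control was -0.34 over these 6 and -0.08 over all genes. Slc12a2 stood at 247 CPM in the coculture and at 423 CPM in the control, a log2 ratio of -0.77 [-0.80, -0.75]. Slc26a3 stood at 46.3 against 28.9 CPM, a log2 ratio of 0.68 [0.59, 0.77]. Cftr stood at 56.1 against 73.7 CPM (-0.39), Car2 at 5.19 against 7.97 CPM (-0.62), Aqp4 at 30.5 against 35.1 CPM (-0.20) and Fxyd4 at 1.90 against 2.31 CPM (-0.28 [-0.64, 0.08]). The intervals leave out differences between cultures, which a single library of each cannot show.

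By class, Slc12a2 was lower in coculture in stem-like cells, at 469 against 690 CPM (-0.56), in cycling-like cells, at 466 against 674 CPM (-0.53), and in Paneth-like cells, at 411 against 850.1 CPM (-1.05). In enterocyte-like cells it stood at 10.6 against 10.3 CPM (0.05 [-0.48, 0.61]). Slc26a3 stood at 112 against 99.0 CPM in enterocyte-like cells (0.18) and at 19.7 against 12.03 CPM in cycling-like cells (0.71). Unnamed cells, 603 of 1028 in the coculture and 322 of 538 in the control, were the largest group. In them Slc12a2 stood at 222 against 273 CPM and Slc26a3 at 43.5 against 31.4 CPM. Enterocyte-like cells made up 173 of 1028 cells in the coculture and 48 of 538 in the control, and the library value of Slc26a3 (0.68) differed by more than its value within that class. In the 55 and 23 Paneth-like cells, Cftr stood at 21.4 against 62.0 CPM (-1.54) and Aqp4 at 19.4 against 43.5 CPM (-1.16).

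**Figure D5:**
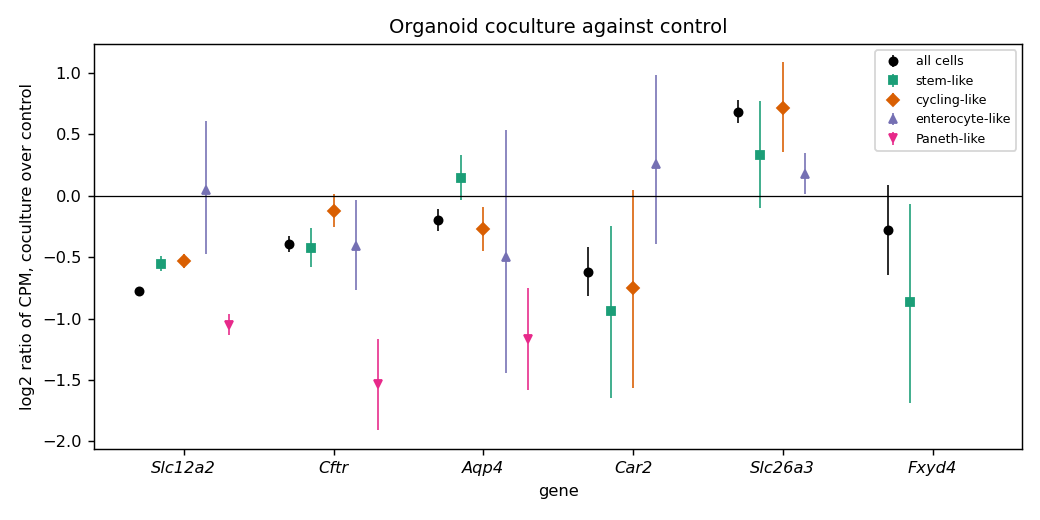
Log2 ratio of coculture over control for the 6 genes with at least 100 UMIs, over all cells and within classes, with 95% counting intervals (at least 30 UMIs in a group). Slc12a2 lies below 0 over all cells and in stem-like, cycling-like and Paneth-like cells and at 0.05 in enterocyte-like cells.

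The other transport genes were taken as 8 lists of 66 genes, chosen with earlier results known. In the sections 10 of the 52 measured were past 2-fold higher in large intestine and 11 in small intestine, with a median log2 ratio of -0.19, beside 10.3% and 10.6% of all genes. The 5 highest ratios included 3 genes with 3 UMIs or fewer in each small intestinal section, for which the interval of the log2 ratio is given and no order. Best2, a bicarbonate-permeable channel, had 2 and 3 UMIs against 1074 and 1169 [6.94, 9.79]. Of the epithelial sodium channel subunits, Scnn1b had 0 and 1 UMIs against 264 and 304 [6.02, 13.81], and Scnn1g had 1 and 2 UMIs against 75 and 85 [3.52, 7.39]. The other two were Hsd11b2, the enzyme that guards the mineralocorticoid receptor (5.09), and Fxyd3 (2.28). Among the 5 lowest, Pdzk1, a scaffold protein, had 3 and 8 UMIs in the large intestinal sections [-10.04, -8.20]. The aquaglyceroporin Aqp7 had 0 and 6 [-10.42, -7.85], and no order is given for this pair. The others were the anion exchanger Slc26a6 (-7.66), the hormone precursor Guca2b (-4.36) and the sodium-glucose cotransporter Slc5a1 (-4.32). Among anion exchangers, Slc26a3 was thus higher in large and Slc26a6 in small intestine. In sorted cells 12 of 47 measured genes were higher in large and 11 in small intestine, beside 11.5% and 8.83% of all genes, with Best2 (2 UMIs in small intestine, 9.07 [7.80, 12.70]), Hsd11b2 (4.22), Ano1 (3.40) and Kcnma1 (2.17) at one end and Pdzk1 (-6.24), Slc26a6 (-5.61), Guca2b (-2.57), Slc9a3 (-2.31) and Slc5a1 (-2.22) at the other. Scnn1b had 403 UMIs in large and 0 in small intestinal cells. Slc9a3 and Kcnma1 went the other way in the sections, with log2 ratios of 1.37 and -1.11.

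Within the colon sections, 13 of 40 and 13 of 41 measured genes of the lists were past 2-fold higher in surface spots and 12 and 11 in crypt spots. Over all genes 9.13% and 25.6% were so in both sections at once, a stricter rule than that of the counts per section. No excess of the lists in crypt spots is read from these values. Of the 7 measured sodium entry genes, 4 were higher in surface spots and 0 in crypt spots of each section. The sodium-proton exchanger Slc9a3 had log2 ratios of -4.18 in both sections, Slc9a2 -2.94 and -2.93 and Scnn1b -2.71 and -3.11. The sulfate transporter Slc26a2 had -2.73 and -2.85 and the scaffold Slc9a3r1 -2.37 and -2.55. The highest ratios of crypt over surface were those of the potassium channel subunits Kcne3 (3.09 and 3.25) and Kcnn4 (2.42 and 2.32), which are known to support chloride secretion, with the water channel Aqp1 (2.46 and 2.67), Guca2b (2.19 and 2.38) and Slc12a8 (2.11 and 2.22). Cells of large intestine gave 16 of 38 measured genes higher in surface and 6 in crypt classes, beside 11.1% and 25.8% of all genes, with Slc9a3 (-7.42), Guca2a (-5.26), Ano1 (-3.85), Slc9a2 (-3.37) and Scnn1a (-3.14) lowest and Aqp1 (3.05), Car8 (2.46), Kcnn4 (1.93), Kcnq1 (1.81) and Kcne3 (1.72) highest. Cells of small intestine gave 15 of 37 higher in surface and 9 in crypt classes, beside 11.9% and 30.2% of all genes. Guca2b (-5.88), Slc9a3 (-4.92), Slc26a6 (-4.33) and Guca2a (-3.28) were among the lowest there, with Pdzk1 (2 UMIs in crypt classes and 517 in surface classes). Car8 (4.11), Kcnn4 (4.07), Car12 (3.25), Kcne3 (3.21) and Kcnq1 (2.37) were highest. Slc9a3 was thus higher in surface classes and Kcnn4, Kcne3 and Kcnq1 in crypt classes of both tissues. In the organoids, 0 of 38 measured genes of the lists were past 2-fold higher in coculture (1.22% of all genes) and 1 was lower (2.53%), the calcium-activated chloride channel Ano1, at 0.289 against 2.84 CPM (log2 ratio -3.30 [-3.95, -2.70]).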

How the data were processed

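Gene expression was measured in 4 single-cell and 4 Visium libraries. The deposited files hold raw UMI counts per gene and barcode, made by the authors with Cell Ranger 6.0.1 (single cells) and Space Ranger 1.2.1 (Visium), per the file headers; the submitters' processing notes name the build mm10 and only Cell Ranger. The members and lists were chosen with earlier results of these data known.

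A cell was kept from 500 detected genes upwards if mitochondrial UMIs did not exceed 20%, and the top 0.8% per 1000 cells by Scrublet score were removed as doublets. Spots with at least 500 UMIs were kept. The 2 tissue libraries shared 25 barcodes and the organoid libraries 0. Clustering (scanpy 1.11.5, 2000 variable genes, 30 components, 15 neighbours, Leiden resolution 1) left out the members and the 66 pathway genes. Clusters were named from 23 marker lists. Cell names are thus rebuilt here and can differ from those of the study.

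Counts were summed per group and scaled to CPM. Thinning was to 2000 UMIs (tissue cells, spots) or 10000 (organoids). Ranked spots had at least 5 UMIs of the crypt and surface lists. Ratios and intervals were tested on simulated data. Named pathway genes come from the 5 highest and 5 lowest ratios with at least 100 UMIs, and the genes most like a member the 3 with the highest r among genes with at least 200 UMIs, of which the text names the first 1 to 3; the genes most like Cftr are not reported here. Alternatives are given in the closing section.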

Additional observations from a re-analysis of the deposited data

Results flagged for a closer look

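Of the 10 genes, 2 lay on opposite sides of the crypt to surface comparison in the tissues, each in 1 of the 2 assays, with counting intervals that excluded 0. Aqp4 had a log2 ratio of crypt over surface classes of 4.57 in small intestinal cells and of -1.79 in large intestinal cells, with 1 library of each. In the sections its ratio was above 0 in both tissues (0.98 and 0.68 in small intestine, with intervals that include 0, and 0.97 and 0.70 in large intestine). Slc26a3 had log2 ratios of 1.12 and 1.02 in the small intestinal sections and of -4.39 and -4.39 in the large intestinal sections. In cells its ratio was below 0 in both tissues (-2.47 and -5.81). Neither difference was tested, since a tissue had 1 library or technical duplicates.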

How the results depend on the processing

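No paired analysis was possible because no result has a test and the equally numbered sections are technical duplicates. Of 512 single-gene and single-pair values under the alternatives, 304 stayed within their counting interval or section spread, 198 moved beyond it and 10 changed sign. In tissue cells Slc26a3 turned to 0.034 with the loose cell filter and to 0.18 when CPM were averaged over cells, and Cftr to -0.11 with the loose filter, -0.10 when centred on all genes and -0.21 in epithelial cells only. Further sign changes were those of Aqp4 in organoids (0.021, CPM averaged over cells), Slc12a2 between the sections (0.074, CPM without mitochondrial and ribosomal genes), Car4 in small intestinal spots (0.030) and Car2 in large intestinal spots (0.87) when spots were epithelium-rich, and Car4 in large intestinal cells (2.53, strict filter). The cause was not tested. The strict filter (1000 genes per cell, mitochondrial share no more than 10%) also gave 2 genes higher in small intestinal cells in place of 1 and 3 higher in large intestinal surface classes in place of 8. In small intestinal spots, comparing the outermost 10% at each end gave 1 gene higher at the surface in place of 0, the crypt list without proliferation genes gave 0 higher in crypt spots in place of 1, and leaving out a section gave 1 to 2. Without thinning, 11 pairs had r of at least 0.3 in place of 6, and 18 had r of at most -0.2 in place of 5. The other counts stayed within 1.5 times. In epithelium-rich spots of small intestine the count stayed 1, but the gene was Slc26a3 and no longer Slc12a2. Counts of Aqp8, Car1, Atp12a and, in small intestine, Fxyd4 were at most 30 UMIs in each small intestinal or organoid library, which limits the precision of their ratios.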
